A study of Ovis aries and Bos taurus with 15 samples.

Results

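The genes described here encode the subunits and assembly factors of respiratory complex I. They were chosen by name, as every probe set that the platform annotation gives exactly 1 gene symbol beginning with NDUF. The rule found 57 probe sets of the 24016 tested, for 42 of 9155 named genes. Of the 42 genes, 36 encode subunits and 4 encode NDUFAF assembly factors. The remaining 2, NDUFA4 and NDUFA4L2, are kept apart, because NDUFA4 is now counted with complex IV.

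Complex I, the NADH:ubiquinone oxidoreductase, is the largest enzyme of the respiratory chain. Its matrix arm takes electrons from NADH through a flavin and a chain of iron-sulfur clusters to ubiquinone, and its membrane arm pumps protons across the inner mitochondrial membrane. A core of conserved subunits carries out the chemistry, accessory subunits surround it, and assembly factors build it without staying in the finished enzyme. Some core subunits of the membrane arm are encoded by mitochondrial DNA and carry no NDUF symbol. Endothelial cells make much of their ATP by glycolysis, and in them the respiratory chain also serves redox balance, biosynthesis and the formation of superoxide.

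Expression was measured on an Affymetrix bovine array, with 1 array per sample and 5 per group. The bovine control cells (Bos taurus, labelled BAEC) were grown in DMEM with 10% FBS. Ovine cells (Ovis aries, labelled PAEC, pulmonary endothelial cells by the study's title), in the same medium, received 5 µM GW9662, an irreversible PPARγ antagonist, for 24 h, or its DMSO vehicle. The labels name no treatment for the bovine cells. No label says whether replicates were separate cultures or animals, so the p-values measure the spread between these samples, which may be technical.

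Values are log2 expression values, so 1 unit is a doubling of signal, and the brightest probe set stands for a gene. A mean under 3 lies near the bottom of the scale and cannot be told from no expression. It was found for 10 of the 57 probe sets, 9 of them second or further probe sets of a gene. NDUFA4L2 was the 1 gene whose brightest probe set was that dim, so all 36 subunit genes had a mean of 3 or more. The assembly factors NDUFAF1, NDUFAF2, NDUFAF4 and NDUFAF7 had no named probe set and were not analysed here. All 42 symbols are also genes of the sheep RefSeq annotation. Levels of different probe sets cannot be set against each other, so every comparison is of 1 probe set between groups.

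Array medians lay between 3.18 and 3.27. The mean difference between the 3′ and 5′ probe sets of 6 control transcripts, a measure of RNA quality, was 0.881 ± 0.043 in bovine, 0.956 ± 0.074 in GW9662 and 1.18 ± 0.085 in vehicle arrays (SD, n = 5 each). Against vehicle it was lower in both other groups by a two-sided exact permutation test (p = 0.00794 for each), the smallest p that 5 against 5 arrays allow. These control probe sets are bovine. Between bovine and ovine arrays, RNA quality and the match of sheep RNA to them therefore cannot be told apart. Vehicle replicate 1 stood apart, with an SD of differences to the other vehicle arrays of 0.281 to 0.317, against 0.155 to 0.226 for all other pairs within groups. Of 13 endothelial markers measured, 12 had a mean of 3 or more in bovine, 11 in GW9662 and 10 in vehicle arrays, but VWF was near the floor in all of them, CLDN5 in both ovine groups and KDR in vehicle arrays. Of 7 smooth muscle markers, 5 were near the floor in all groups (ACTA2, MYH11, CNN1, DES and LMOD1), while TAGLN was at 9.001 in bovine, 7.16 in GW9662 and 7.18 in vehicle arrays and SMTN at 5.19 in bovine, 4.29 in GW9662 and 3.91 in vehicle arrays. Of 8 fibroblast markers, COL1A1, DCN, DPT, LUM and PDGFRA were near the floor. COL1A2 was at 11.24 in bovine, 10.36 in GW9662 and 10.33 in vehicle arrays, COL3A1 at 10.41 in bovine, 10.55 in GW9662 and 10.44 in vehicle arrays, and FBLN1 at 8.61 in bovine, 3.68 in GW9662 and 3.74 in vehicle arrays. CD14, a leukocyte marker, was at 6.72 in GW9662 and 6.69 in vehicle arrays.

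**Figure D1:**
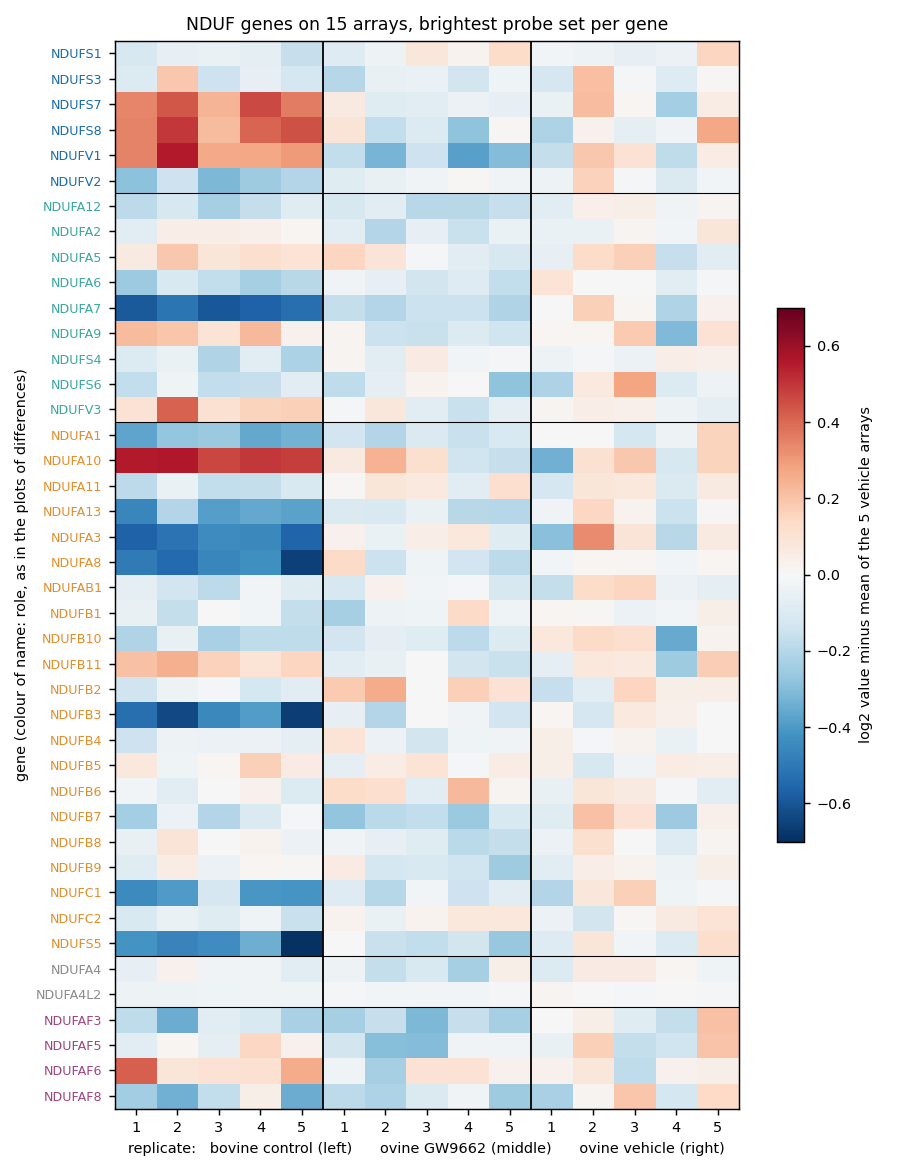
Log2 value of each of the 42 NDUF genes (rows, ordered by role) on each of the 15 arrays (columns, bovine control, then GW9662, then vehicle), minus the mean of the 5 vehicle arrays. Colour gives the difference, and the bovine columns hold the strongest colours in both directions.

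The first comparison asked whether GW9662 changed the expression of complex I genes in ovine cells. No complex I gene passed the test. None of the 57 probe sets reached an adjusted p of 0.05 in limma, where 0.183% of all probe sets did, which is 44 of 24016. Most subunit genes had small negative differences, with a median log2 difference of -0.08 over 36 genes and 27 of 36 below 0. The median over all 6303 genes with a mean of 3 or more was 0.01, with 2973 below 0. In these bulk cultures, fewer cells of a type and less RNA per cell cannot be told apart.

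At an unadjusted p under 0.05, 14 of the 57 probe sets (24.6%) were lower and 0 were higher. Over all probe sets, dim ones included, the shares were 14.5% lower and 6.87% higher. Among the 12988 probe sets with a mean of 3 or more, 1220 (9.39%) were lower and 1614 higher. By gene, 10 of the 36 subunits (27.8%) were lower and 0 higher. Of the 6303 genes with a mean of 3 or more, 575 (9.12%) were lower and 692 higher. This balance moved with the scaling: with each array centred on its median, 4 of the 57 were lower and 1 higher, and over all probe sets 518 were lower and 2870 higher, against 3491 and 1650 as deposited. Of the 57 probe sets, 32 were below 0 after centring and 46 as deposited, and among named genes NDUFS7, NDUFV2, NDUFAF6 and NDUFA4L2 turned to small positive differences. The GW9662 and vehicle values did not overlap for 5 of the 57 probe sets (8.77%), 4 of them with a mean under 3, against 14.6% of all probe sets. The 95% intervals of the 36 subunit genes reached down to -0.45, for NDUFV1, and up to 0.29, for NDUFA10.

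**Figure D2:**
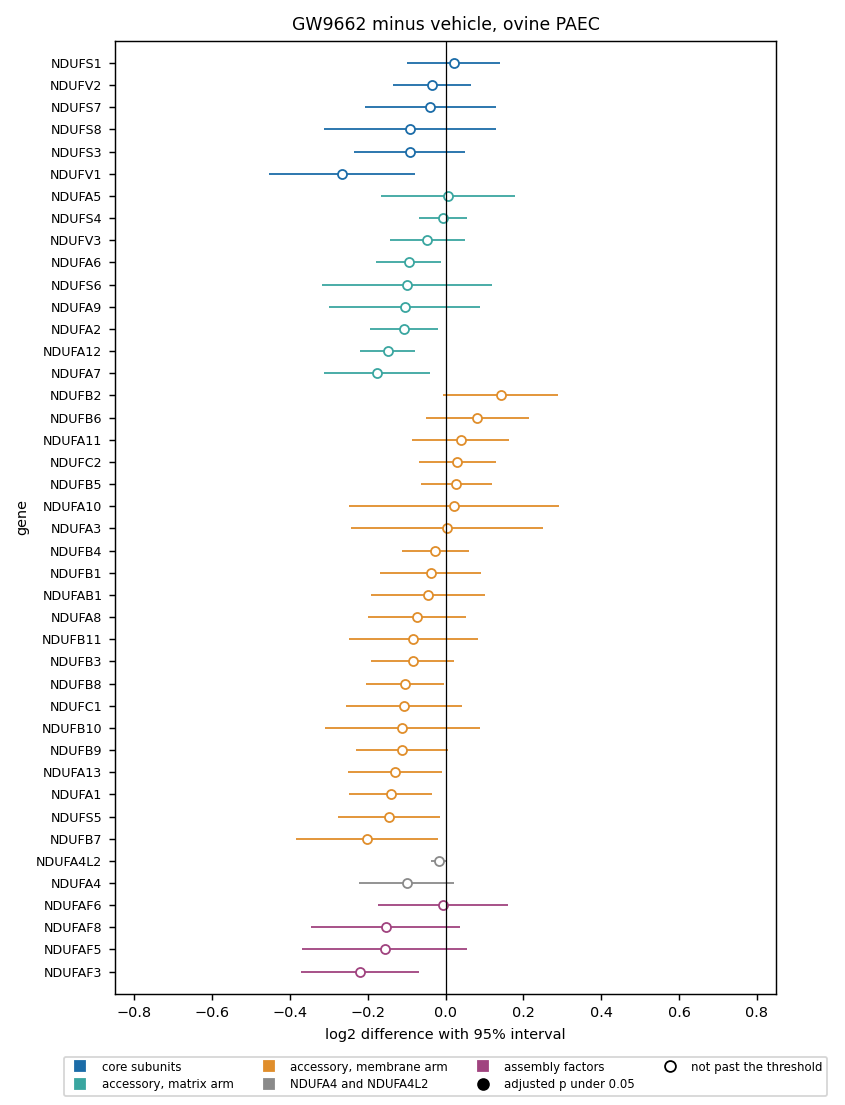
Log2 difference, GW9662 minus vehicle, for each NDUF gene, with its 95% interval as a line (5 arrays per group). Filled points would mark an adjusted p under 0.05, and no gene has one, with NDUFV1 farthest below 0.

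Among 6 core subunits, 5 were below 0, with a median of -0.07. NDUFV1, which holds the flavin and the NADH-binding site, had values of 7.47, 7.31, 7.49, 7.26 and 7.33 with GW9662, against 7.47, 7.83, 7.74, 7.46 and 7.69 with vehicle. The highest GW9662 values lay above the lowest vehicle values, so the groups overlapped. The log2 difference of -0.27 (SE 0.082, limma adjusted p = 0.217) was the largest of all 42 genes in either direction and amounts to 1.203-fold. The other core subunits were nearer to 0. NDUFS3 was at -0.09 (adjusted p = 0.346) and NDUFS8, which carries iron-sulfur clusters on the way to ubiquinone, at -0.09 (adjusted p = 0.527). NDUFS7, holder of the last cluster before ubiquinone, was at -0.04 (adjusted p = 0.725), NDUFV2, a neighbour of NDUFV1 with a cluster of its own, at -0.03 (adjusted p = 0.596), and NDUFS1, the largest subunit, at 0.02 (adjusted p = 0.790).

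Of the 9 accessory subunits of the matrix arm, 8 were below 0, with a median of -0.10, and 4 of them had an unadjusted p under 0.05. NDUFA12 had values of 10.70, 10.73, 10.61, 10.62 and 10.65 with GW9662, against 10.73, 10.85, 10.85, 10.79 and 10.83 with vehicle. It was the only gene of the 42 with a mean of 3 or more whose GW9662 and vehicle arrays did not overlap. The gap was narrow: the highest GW9662 array was replicate 2 and the lowest vehicle array was replicate 1, the array that stood apart. The difference of -0.15 (SE 0.031) had an unadjusted p of 0.0010 and an adjusted p of 0.123 in limma. Among the alternatives run, it passed only after a further quantile normalisation, at -0.17 (adjusted p = 0.0160). NDUFA7 was at -0.18 (SE 0.060, adjusted p = 0.217) and NDUFA2, a thioredoxin-fold subunit, at -0.11 (adjusted p = 0.217).

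Of the 21 accessory subunits of the membrane arm, 14 were below 0 and 7 above, with a median of -0.07, and 5 had an unadjusted p under 0.05, all of them lower. NDUFA1, a small subunit needed for assembly, was at -0.14 (SE 0.047, adjusted p = 0.217). The largest positive difference of any NDUF gene was that of NDUFB2, and it depended on the probe set. Its brightest probe set read 9.82, 9.89, 9.64, 9.80 and 9.73 with GW9662, against 9.47, 9.56, 9.78, 9.67 and 9.68 with vehicle, a difference of 0.14 (SE 0.066, adjusted p = 0.241). A second bright probe set of the same gene read 8.82, 8.82, 8.88, 8.79 and 8.87 with GW9662, against 9.03, 9.05, 8.89, 8.87 and 9.04 with vehicle, a difference of -0.14 (SE 0.042, adjusted p = 0.217). The 2 probe sets therefore gave opposite signs, and neither passed. The other positive differences named by rank were small, at 0.08 for NDUFB6, 0.04 for NDUFA11, a subunit related to the protein translocases of the inner membrane, and 0.03 each for NDUFB5 and NDUFC2 (adjusted p from 0.360 to 0.645).

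All 4 NDUFAF assembly factors were below 0, with a median of -0.16, and none passed. NDUFAF3, which acts early in building the part that binds ubiquinone, read 7.56, 7.63, 7.48, 7.64 and 7.56 with GW9662, against 7.80, 7.84, 7.71, 7.63 and 8.004 with vehicle. Only the highest GW9662 arrays reached the lowest vehicle array, and the difference was -0.22 (SE 0.066, adjusted p = 0.217). A second probe set of NDUFAF3 with a mean of 3 or more had the opposite sign, at 0.08 (adjusted p = 0.456). NDUFAF5, which hydroxylates an arginine of NDUFS7, was at -0.16 (adjusted p = 0.301), and NDUFAF8, which stabilises NDUFAF5, at -0.15 (adjusted p = 0.276). NDUFAF6 was at -0.01 (adjusted p = 0.955). NDUFA4 was at -0.10 (adjusted p = 0.269), and its paralogue NDUFA4L2, a gene induced by hypoxia in other cells, lay close to the bottom of the scale (2.20 in GW9662, 2.21 in vehicle cells).

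The other parts of the respiratory chain gave the same count of 0 called genes. Of 9 measured assembly factors without an NDUF symbol, 7 were below 0 (median -0.08), with TMEM126A at -0.14 (adjusted p = 0.278) and CHCHD4, the import receptor for proteins with paired cysteine motifs, at -0.11 (adjusted p = 0.299). Of the genes measured, 3 of 4 in complex II (median -0.05) and 8 of 9 in complex III (median -0.11) were below 0. So were 10 of 10 in complex IV (median -0.12) and 15 of 15 in ATP synthase (median -0.08). At an unadjusted p under 0.05, 3 genes of complex III, 6 of complex IV and 5 of ATP synthase were lower and none of them higher, and complex II had 1 in each direction. The lower genes made up 33.3% of those measured in complex III, 60% in complex IV, 33.3% in ATP synthase and 25% in complex II. Of the 6303 genes with a mean of 3 or more, 9.12% were lower at that p (575, with 692 higher). The smallest p-values in these complexes belonged to SDHD at 0.15 (adjusted p = 0.224) and SDHC at -0.09 (adjusted p = 0.225), to CYC1, cytochrome c1, at -0.22 (adjusted p = 0.112) and UQCRFS1 at -0.18 (adjusted p = 0.138), to COX5B at -0.16 (adjusted p = 0.0913) and COX7A2 at -0.15 (adjusted p = 0.119), and to ATP5MC1 at -0.19 (adjusted p = 0.131) and ATP5PD at -0.10 (adjusted p = 0.169). Of 7 regulators of respiratory genes, the coactivator PPARGC1A was at -0.09 (adjusted p = 0.217) and NRF1 at -0.02 (adjusted p = 0.228), both with a mean under 3. The 3′ to 5′ difference was lower with GW9662 (0.956, against 1.18 with vehicle). Its GW9662 range (0.853 to 1.04) lay below its vehicle range (1.07 to 1.30), so it and the group cannot be told apart. In a fit with it as a covariate, limma called 0 of 24016 probe sets (1312 had an unadjusted p under 0.05). For the same reason, that fit cannot decide its part in these small negative differences, and no other test of it was made. The summed linear level of the 13 endothelial markers, to which the brightest add most, was also lower, at 11063 to 12273 with GW9662 and 12280 to 13499 with vehicle. By gene, 11 of the 13 were below 0 and 2 above. KDR went up the most, from 2.64 with vehicle to 3.79 with GW9662 (1.15, limma adjusted p = 0.217). The part of these markers was not tested.

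The second comparison set bovine control against ovine vehicle arrays, which share the vehicle arrays with the first. Species, origin of the cells and vehicle differ together between these groups, as does the match of sheep RNA to bovine probes, and they cannot be told apart. Complex I genes differed in both directions. In limma, 22 of the 57 probe sets (38.6%) passed an adjusted p of 0.05, with 5 higher and 17 lower in bovine cells, where 45.2% of all probe sets passed, 15.6% higher and 29.6% lower. By gene, 17 of the 36 subunits (47.2%) passed, 5 higher and 12 lower, against 54.5% of the 6342 genes with a mean of 3 or more, 1971 of them higher and 1485 lower. Of all probe sets with such a mean, 52.1% passed. Taken over both directions, the share of members called was not above that of all genes or probe sets. By direction the balance differed: most called subunits were lower in bovine cells, and most called genes with a mean of 3 or more were higher.

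The split by direction depended on the scaling for all probe sets: 34.4% of those called were higher as deposited and 57.9% after centring each array on its median. For the 57 NDUF probe sets, 6 were higher and 12 lower after centring. The bovine and vehicle arrays did not overlap for 27 of the 57 (47.4%), against 53.0% of all probe sets, and both counts include dim probe sets. Of probe sets with a mean of 3 or more, 42.7% did not overlap. By gene, this held for 15 of the 36 subunits (41.7%), against 44.7% of the 6342 genes with such a mean. No member that passed reached 1.5-fold as deposited, though without vehicle replicate 4 NDUFA7 did, at -0.61, and with the 3′ to 5′ covariate NDUFS6 did, where 22.2% of all probe sets with a mean of 3 or more passed with at least that fold. The median log2 difference was -0.09 over the 36 subunit genes, with single genes from -0.56 to 0.51, and 0.04 over the 6342 genes.

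**Figure D3:**
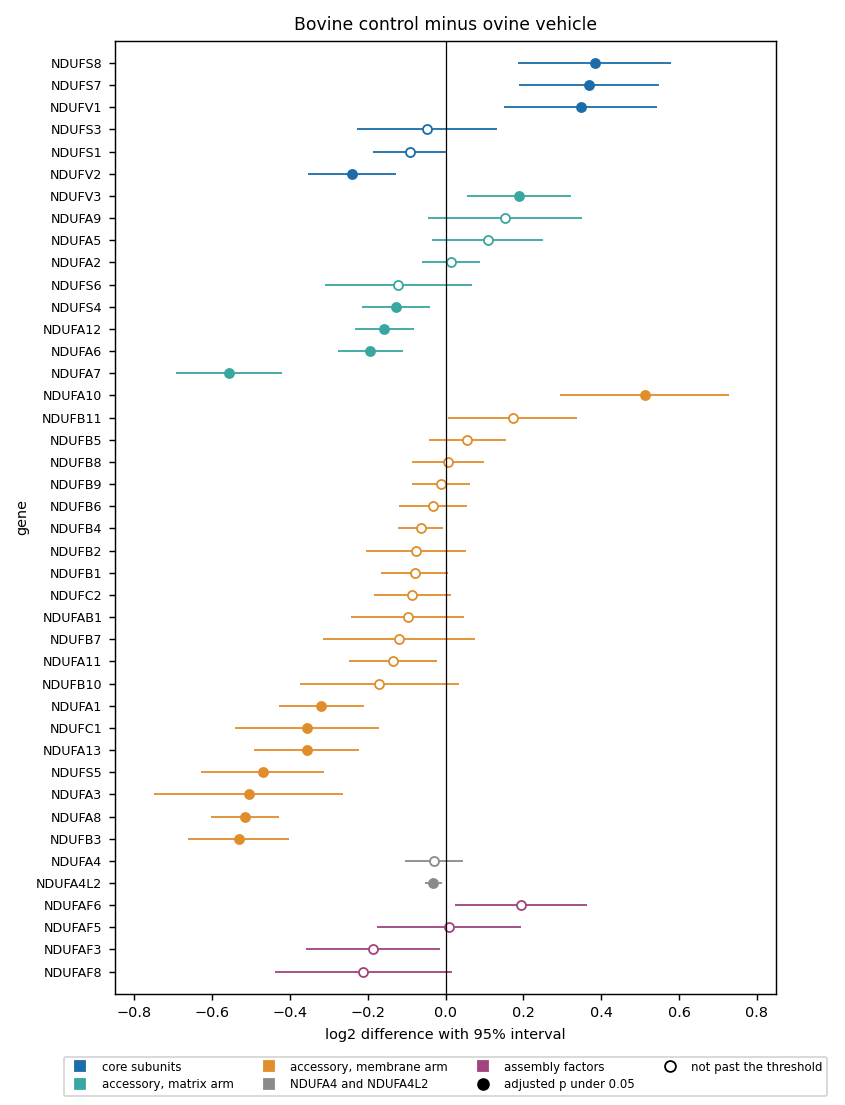
Log2 difference, bovine control minus ovine vehicle, for each NDUF gene, with its 95% interval as a line (5 arrays per group). Filled points have an adjusted p under 0.05: NDUFA10, NDUFS8, NDUFS7, NDUFV1 and NDUFV3 lie above 0, and NDUFA7, NDUFB3 and NDUFA8 are the lowest of those below.

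The core subunits were split. NDUFV1, NDUFS7 and NDUFS8 were higher in bovine cells, NDUFV2 was lower, and NDUFS1 and NDUFS3 did not pass. NDUFS7 read 7.90, 7.99, 7.79, 8.02 and 7.91 in bovine cells, against 7.51, 7.77, 7.56, 7.32 and 7.60 in vehicle cells, with no overlap and a difference of 0.37 (SE 0.080, limma adjusted p = 0.00719). NDUFS8 read 8.02, 8.16, 7.89, 8.08 and 8.11 in bovine cells, against 7.45, 7.70, 7.61, 7.64 and 7.94 in vehicle cells, where the highest vehicle array reached above the lowest bovine one. Its difference was 0.38 (SE 0.087, adjusted p = 0.00923). NDUFV1 read 7.98, 8.19, 7.90, 7.91 and 7.94 in bovine cells, against 7.47, 7.83, 7.74, 7.46 and 7.69 in vehicle cells, with no overlap and a difference of 0.35 (SE 0.087, adjusted p = 0.0140). NDUFV2, which sits beside NDUFV1 at the tip of the matrix arm, differed in the opposite direction, at -0.24 (SE 0.051, adjusted p = 0.00624). NDUFS1 was at -0.09 (adjusted p = 0.0989) and NDUFS3 at -0.05 (adjusted p = 0.626).

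**Figure D4:**
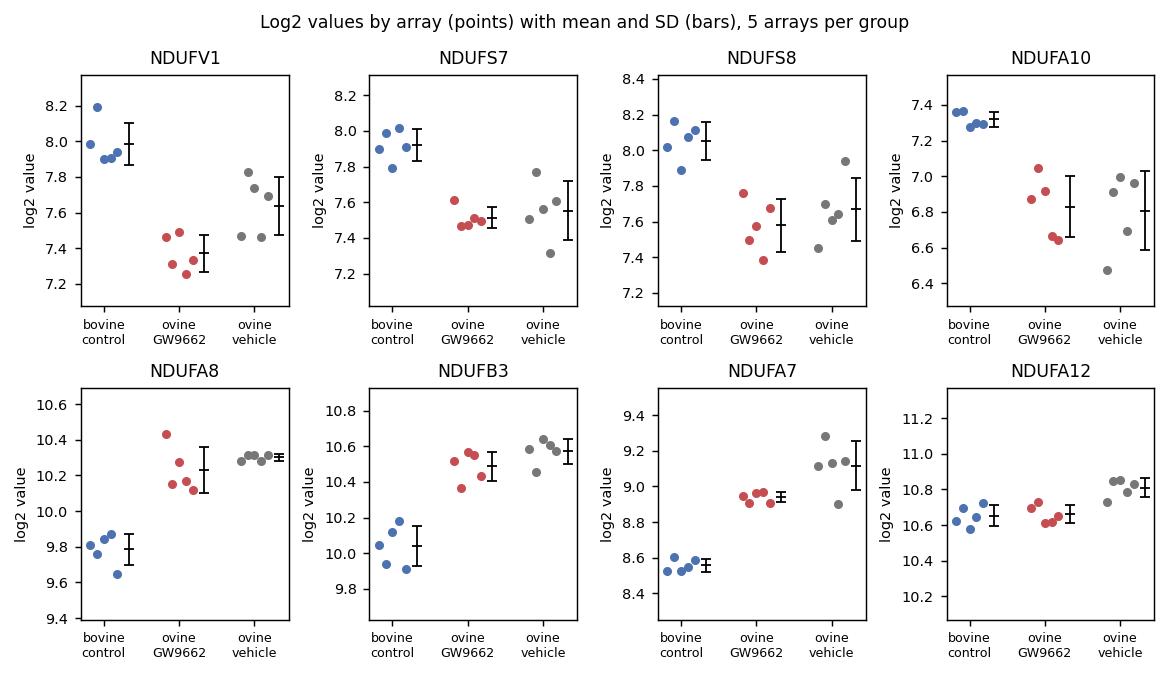
Log2 value on each array for NDUFV1, NDUFS7, NDUFS8, NDUFA10, NDUFA8, NDUFB3, NDUFA7 and NDUFA12, with bovine control, GW9662 and vehicle from left to right. Points are arrays and bars give the mean and SD (n = 5), and for NDUFA8, NDUFB3 and NDUFA7 every bovine array lies below every ovine array.

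Of the accessory subunits of the matrix arm, 4 of 9 were lower in bovine cells, 1 was higher and 4 missed the threshold (median -0.12). NDUFA7 read 8.53, 8.61, 8.52, 8.55 and 8.58 in bovine cells, against 9.11, 9.28, 9.13, 8.90 and 9.14 in vehicle cells. The bovine arrays lay closely together below all vehicle arrays, and the difference of -0.56 (SE 0.060, adjusted p = 0.000106), or 1.47-fold, was the largest of any NDUF gene. NDUFA6, a member of the LYR protein family, fell by 0.19 (adjusted p = 0.00374), NDUFA12 by 0.16 (adjusted p = 0.00691) and NDUFS4, a subunit mutated in Leigh syndrome, by 0.13 (adjusted p = 0.0277). NDUFV3, a small subunit of the NADH-binding part, was the one that was higher, at 0.19 (SE 0.059, adjusted p = 0.0305). The calls of NDUFV3 and NDUFS4 lay close to the threshold. NDUFV3 missed it without bovine replicate 4 or 5 or vehicle replicate 4 or 5, with differences of 0.17 to 0.20 (adjusted p up to 0.0613), and after a second quantile normalisation (0.17, adjusted p = 0.0971). NDUFS4 missed it without bovine replicate 3 or 5 or vehicle replicate 2, 4 or 5, with differences of -0.13 to -0.11 (adjusted p up to 0.0585), after array centring (-0.09, adjusted p = 0.158) and without dim probe sets (adjusted p = 0.0640).

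Of the accessory subunits of the membrane arm, 7 of 21 were lower in bovine cells, 1 was higher and 13 missed the threshold (median -0.10). The one higher gene, NDUFA10, which has the fold of a nucleoside kinase, read 7.36, 7.37, 7.27, 7.30 and 7.29 in bovine cells, against 6.47, 6.91, 6.996, 6.69 and 6.96 in vehicle cells. Its bovine arrays were tightly grouped above the widely spread vehicle arrays, with a difference of 0.51 (SE 0.096, adjusted p = 0.00328). NDUFA8, a subunit on the intermembrane side with paired cysteine motifs, read 9.81, 9.76, 9.84, 9.87 and 9.65 in bovine cells, against 10.28, 10.32, 10.31, 10.28 and 10.31 in vehicle cells. The groups were far apart relative to their spread, with a difference of -0.52 (SE 0.039, adjusted p = 9.70e-06). NDUFB3 read 10.04, 9.94, 10.12, 10.18 and 9.91 in bovine cells, against 10.59, 10.45, 10.64, 10.61 and 10.57 in vehicle cells. All bovine arrays were below all vehicle arrays, and the difference was -0.53 (SE 0.057, adjusted p = 0.000105).

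The other membrane arm genes that passed were all lower in bovine cells. NDUFS5, like NDUFA8 a subunit with paired cysteine motifs, was at -0.47 (SE 0.070, adjusted p = 0.000833), and NDUFA3 was at -0.51 (SE 0.11, adjusted p = 0.00656). NDUFA13, also known as GRIM-19, was at -0.36 (adjusted p = 0.00174), NDUFA1 at -0.32 (adjusted p = 0.000909) and NDUFC1 at -0.36 (adjusted p = 0.00984). NDUFC1 was the one of these whose bovine and vehicle arrays overlapped. NDUFC1 and NDUFS4 fell outside the naming rule and were named after their values were seen, so that all 17 subunits that passed are given.

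None of the 4 NDUFAF assembly factors passed, with a median of -0.09. NDUFAF3 was at -0.19 (adjusted p = 0.0690) and, by its second bright probe set, at 0.20 (adjusted p = 0.0546), so its probe sets again differed in sign. The brightest probe set passed without vehicle replicate 4 (-0.23, adjusted p = 0.0419), after a second quantile normalisation (-0.25, adjusted p = 0.0464) and with all 15 arrays in 1 fit (adjusted p = 0.0306). NDUFAF6 was at 0.19 (adjusted p = 0.0610) and passed after array centring (0.23, adjusted p = 0.0429). NDUFAF8 was at -0.21 (adjusted p = 0.107) and passed after a second quantile normalisation (-0.30, adjusted p = 0.0136), and NDUFAF5 was at 0.01 (adjusted p = 0.941). NDUFA4 was at -0.03 (adjusted p = 0.460). NDUFA4L2 passed at -0.03 (adjusted p = 0.0304), but at 2.18 in bovine and 2.21 in vehicle cells it was near the floor, and the call was lost without bovine replicate 1, 2, 3 or 5 or vehicle replicate 2 or 4. The other 4 of the 22 probe sets were further probe sets of NDUFS1, with 2, of NDUFA7, with a dim one, and of NDUFB2. Of those of NDUFS1, a dim one was at -0.05 and the other at -0.25. The second bright probe set of NDUFB2 was at -0.32 (adjusted p = 0.0016).

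Beyond the NDUF genes, 1 of 9 other assembly factors passed, ACAD9 at 0.49 (adjusted p = 0.0273). Of the other complexes, 0 genes were higher and 1 lower in complex II (SDHC at -0.38), 1 higher and 3 lower in complex III (UQCRB at -0.48 and UQCR10 at -0.31), 2 higher and 5 lower in complex IV (COX7A2L at -0.25 and COX7A2 at -0.19), and 3 higher and 6 lower in ATP synthase (ATP5MG at -0.18 and ATP5MC1 at -0.19). Called genes made up 25% of those measured in complex II, 44.4% in complex III, 70% in complex IV and 60% in ATP synthase. Of the 6342 genes with a mean of 3 or more, 54.5% were called. Of the 7 regulators, 1 was higher, YY1 at 0.31 (adjusted p = 0.0114), and 2 were lower. Both lower ones were dim, with POLRMT at -0.03. The 3′ to 5′ difference did not overlap between bovine (0.843 to 0.942) and vehicle arrays (1.07 to 1.30), so it and the group cannot be told apart. With it as a covariate, 3 of the 57 probe sets passed, NDUFA8 at -0.47 (adjusted p = 0.0415), NDUFA12 at -0.33 (adjusted p = 0.0234) and NDUFS6 at -0.61 (adjusted p = 0.0483), and 1601 probe sets in all. Markers of other cells also moved with the bovine group: the summed linear level of 7 smooth muscle markers was 526 to 637 in bovine and 172 to 219 in vehicle arrays, and that of 8 fibroblast markers 4094 to 4280 in bovine and 2544 to 2877 in vehicle arrays. Of these, 2 smooth muscle and 3 fibroblast markers had a mean of 3 or more in each group, while ACTA2, MYH11, CNN1, DES and LMOD1 were near the floor. The 13 endothelial markers summed to 14260 to 15512 in bovine and 12280 to 13499 in vehicle arrays, and 7 leukocyte markers to 37.1 to 38.7 in bovine and 123 to 149 in vehicle arrays, where CD14 was the only one of them above the floor. The part of these markers in the differences was not tested.

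Within groups, the complex I subunit genes varied less than other genes, which were not matched to them for expression level. The median SD over 5 arrays of the 36 subunit genes was 0.0626 in bovine, 0.0709 in GW9662 and 0.102 in vehicle arrays. For 6294 other genes with a mean of 3 or more, it was 0.101 in bovine, 0.107 in GW9662 and 0.145 in vehicle arrays. The median of the 36 subunit genes on an array was 9.48 ± 0.037 in bovine, 9.56 ± 0.039 in GW9662 and 9.60 ± 0.064 in vehicle arrays (SD, n = 5 each). The GW9662 range, 9.52 to 9.60, overlapped the vehicle range, 9.52 to 9.65, and the bovine range ran from 9.43 to 9.52.

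The subunit genes also tended to deviate together from their group means. Over the 15 arrays, the median correlation between pairs of the 36 subunit genes was 0.21 and 71.0% of pairs were positive, against 0.07 and 57.8% for other genes. Without vehicle replicate 1 the median was 0.20 with 68.9% positive, against 0.02 and 52.0% for other genes. These correlations are across arrays that share their labelling and normalisation, and are given as a description.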

How the data were processed

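Per the file headers and labels, the authors deposited expression on the log2 scale from an Affymetrix bovine array, 1 array per sample and 15 samples in 3 groups of 5. The tool was RMA, per the submitters' processing notes. RMA corrects background, quantile-normalises arrays and summarises probes, and its version is not given in the sources used here. Biotin-labelled cRNA was made from total RNA, per the labels' protocols. No counts or signal over background were used, so the number of arrays limits the precision.

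The 112 control probe sets were left out, and 24016 remained. Of these, 13292 had 1 gene symbol in the platform annotation, 86 several and 10638 none, and only the first were named. No 2 arrays held the same values. Each comparison used its own 10 arrays in limma 3.58.1 (R 4.3.3; lmFit, then eBayes). P-values were adjusted by Benjamini-Hochberg over all 24016 probe sets, with a threshold of 0.05. The fits were tested on simulated data. The 3′ to 5′ difference was compared between groups by a two-sided exact permutation test.

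The genes named were, for each comparison, the core subunits and NDUFAF genes measured, NDUFA4 and NDUFA4L2, and those with the smallest p: for GW9662 6 in each direction, and for bovine cells up to 10 in each direction among those that passed. The 2 genes with the smallest p were named in each other list. The members and lists were chosen with earlier results of these data known. Correlations between the deviations of same-numbered replicates were -0.19 to 0.17 for GW9662 and vehicle, and -0.097 to 0.094 for bovine and vehicle. The main fits therefore took no pairs, though such correlations cannot decide whether the samples were paired. Alternatives were array centring, a second quantile normalisation, leaving out dim probe sets, trended and robust variance, array weights, 1 fit over all 15 arrays, a replicate block, the 3′ to 5′ difference as covariate, the mean over a gene's probe sets and leaving out each array. Counts by direction under these settings were added after the data were seen.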

Additional observations from a re-analysis of the deposited data

Results flagged for a closer look

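This screen did not cover every NDUF gene. Within a group of 5 arrays, 1 array stood far from the other 4 for 7 of the genes examined and 1 gene group. There the gap to the nearest other array exceeded 0.710 of the group's whole range (Dixon's 95% critical value). Of 102 groups examined, 8 were so marked, and chance marks about 1 in 20. Bovine replicate 2 was high for NDUFV1 (8.19, against 7.90 to 7.98 on the others, a gap of 0.7146 of the range), NDUFV3 (10.20, against 9.89 to 9.95, gap 0.8054) and NDUFS3 (8.76, against 8.42 to 8.51, gap 0.739). Bovine replicate 3 was high for NDUFC1 (9.51, against 9.18 to 9.23, gap 0.8484), and bovine replicate 1 was low for NDUFA2 (10.45, against 10.54 to 10.57, gap 0.7205). The median of the 4 NDUFAF genes was high on bovine replicate 4 (6.01, against 5.75 to 5.80, gap 0.8255). Among vehicle arrays, replicate 5 was high for NDUFS1 (9.83, against 9.62 to 9.66, gap 0.8243) and replicate 3 was low for NDUFAF6 (3.41, against 3.62 to 3.67, gap 0.814). No GW9662 array was marked. Outside the screen, NDUFB10 was low on vehicle replicate 4 (9.309, against 9.685 to 9.792 on the others), so the list is not complete. Without bovine replicate 2 the calls of NDUFV1 and NDUFV3 held. The NDUFV3 difference was then 0.13, its lowest with 1 array left out, against 0.19 with all arrays.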

How the results depend on the processing

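No NDUF probe set was called for GW9662 under any alternative except a second quantile normalisation, which called 1 (NDUFA12). For bovine cells, 17 to 30 were called under all alternatives except the 3′ to 5′ covariate, which called 3 and moved the medians to -0.15 for subunits and 0.090 for NDUFAF genes. The median of the subunit genes stayed negative throughout in both comparisons, and the cause of changes with a setting was not tested. Over all probe sets, GW9662 calls numbered 67 after array centring, 76 without dim probe sets, 26 with trended and robust variance and 237 with all 15 arrays in 1 fit. The covariate called 0 (1312 at an unadjusted p under 0.05). Leaving out 1 array gave 9 to 62: vehicle replicate 5 gave 9 and vehicle replicate 2 gave 18 when absent, and leaving out GW9662 replicate 1, 2, 4 or 5 gave 23, 22, 20 or 17. Bovine calls numbered 6455 after centring, 6802 after a second quantile normalisation, 6586 without dim probe sets and 1601 with the covariate. In limma fits with a replicate block, 0 probe sets passed for GW9662 (3205 at an unadjusted p under 0.05) and 5396 for bovine cells, 17 of them NDUF, and the calls of NDUFV3, NDUFS4 and NDUFA4L2 were lost. The mean over probe sets called NDUFS1 (-0.13, adjusted p = 0.0115) and NDUFA4 (-0.08, adjusted p = 0.0293) in bovine cells. By their brightest probe sets neither passed in limma (-0.09, adjusted p = 0.0989, and -0.03, adjusted p = 0.460). The mean took in a dim probe set of NDUFA4 (-0.14). For NDUFS1 it took in a dim one (-0.05) and another at 3.34 in bovine and 3.59 in vehicle arrays (-0.25). The higher share of bovine calls was 47.4% after quantile normalisation, 56.3% without dim probe sets and 56.2% with the block, and that of GW9662 calls was 79.5% as deposited, 91.0% after centring and 61.3% after quantile normalisation.

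Signs turned for differences that did not pass, up to 0.14 for NDUFB2 with GW9662 and -0.19 for NDUFAF3 in bovine cells, and for NDUFA4L2. For GW9662, centring gave NDUFA4L2 0.026, NDUFAF6 0.036, NDUFS7 0.0031 and NDUFV2 0.0076. Quantile normalisation gave NDUFA4L2 0.00038, NDUFS1 -0.023, NDUFA11 -0.035 and NDUFB5 -0.012. Array weights gave NDUFS1 -0.018, and the mean over probe sets -0.0058. The covariate gave NDUFAF6 0.27, NDUFV2 0.011, NDUFB2 -0.14, NDUFB6 -0.049 and NDUFA11 -0.039. Leaving out 1 array gave ranges of -0.051 to 0.050 for NDUFAF6, -0.0061 to 0.059 for NDUFS1, -0.099 to 0.015 for NDUFS7, -0.060 to 0.0061 for NDUFV2, -0.00074 to 0.050 for NDUFB5 and -0.0028 to 0.054 for NDUFC2. For bovine cells, centring gave NDUFA4L2 0.0034 and NDUFA4 0.0048, quantile normalisation NDUFAF5 -0.089, array weights NDUFAF5 -0.022, the covariate NDUFAF3 0.073 and the mean over probe sets NDUFAF3 5.8e-05. Leaving out 1 array gave -0.034 to 0.057 for NDUFAF5 and -0.11 to 0.0052 for NDUFS3.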
